A study of Mus musculus with 15 samples.

Results

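The genes described here are those whose level differed from parental 4T1 cells in the same direction in every one of 4 lines derived from them. A gene was taken when the mean of its brightest probe set lay at least 0.7 log2 (1.62-fold) above the parental mean in all 4 lines, or at least that far below it in all 4. Of 19937 genes, 127 met this threshold, 0.637% of them, with 45 higher (0.226%) and 82 lower (0.411%). The rule drops collagen genes, of which none met the threshold, and 13 genes by name, of which 11 met it. This left 116 members, 39 higher and 77 lower than in parental cells. The differences from parental cells chose the members, so they are given as a description with no test.

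4T1 is a mouse cell line derived from a metastasising mammary carcinoma, and expression was read on 15 arrays, 3 for each of 5 lines. The lines were parental 4T1 cells, 4T1 cells depleted of endogenous Twist1 (Tw1KD), and Tw1KD cells given back wild-type Twist1 (called the Twist1 line here), Twist1 with the S42A substitution or Twist1 with the S42D substitution. For the S42D samples the genotype field mentions the alanine and the aspartate form together, so that line is identified by its title. The labels give 1 growth protocol and apply it to all cells, to 70% confluency in medium holding puromycin at 4 µg/ml together with G418 at 800 µg/ml. They do not state separately whether parental cells received both drugs. How Twist1 was depleted, the vectors and whether a line is 1 clone or a pool are not given in the sources used here, and parental cells carrying control vectors are not among the groups. What the 4 derived lines have in common against parental cells, the depletion itself, any vector, any drug selection and their derivation, cannot be told apart here. No label says that the 3 samples of a line were separate cultures, so the errors and p-values measure the spread between these samples only. Levels come from cells in bulk, where fewer cells of a type and less RNA per cell cannot be told apart.

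Twist1 is a basic helix-loop-helix transcription factor that binds E-box sequences and is known for driving epithelial-mesenchymal transition in carcinoma cells. Serine 42 is a known phosphorylation site of the kinase Akt. Alanine at that position cannot be phosphorylated, and aspartate carries a negative charge as phosphate does. The rule picks genes that stood apart from parental cells both where Twist1 was depleted and where each form of it had been given back.

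The array medians lay between 6.57 and 6.72 log2, and arrays correlated across genes at 0.997 to 0.999 within a line and 0.975 to 0.987 between different lines. Twist1 itself was lower than in parental cells by 1.69 ± 0.080, 0.70 ± 0.080, 0.33 ± 0.080 and 0.034 ± 0.080 log2 (difference ± SE, n = 3) in the Tw1KD, Twist1, S42A and S42D lines, so it is not a member. All 9 markers chosen for 4T1 carcinoma cells lay above the dim range in every line, the dim range being levels under 5.50 log2, the lower quartile of all line means. Some moved little, with line means of 12.89 to 13.18 log2 for Krt8 (lowest in Tw1KD) and 12.31 to 12.71 for Krt18. Cldn7, at 6.77 to 7.27, and Vim, at 13.46 to 13.55, also moved little. Others were not steady. The epithelial cadherin gene Cdh1 had line means of 10.31 log2 in parental cells and 11.46 in Tw1KD. Its means were 8.52 in Twist1, 6.34 in S42A and 7.503 in S42D. Krt19, Cldn4 and Epcam were likewise higher in Tw1KD and lower in the lines given Twist1 than in parental cells, and Epcam, at 5.55 to 5.66 log2 in those lines, came close to the dim range. Of 21 leukocyte markers, 8 to 10 lay above it, and Ptprc, which encodes the pan-leukocyte antigen CD45, was dim in every line. Of 15 fibroblast markers 10 to 12 lay above it, with Lum, Fap and Postn dim in every line. Of 15 endothelial markers 9 to 11 lay above it, with Kdr, Tek, Emcn and Mmrn2 dim in every line. The summed linear intensity of the fibroblast markers was 6817 to 7080 in parental cells, 5046 to 5253 in Tw1KD cells and 10449 to 11038 in the S42D line. It was 7555 to 7821 in the Twist1 line and 8811 to 8937 in the S42A line. The leukocyte sum was 1199 to 1203 in parental cells, 1204 to 1240 in S42A and 1306 to 1381 in Tw1KD, and it reached 2124 to 2134 in the Twist1 line and 3631 to 3742 in S42D. The endothelial sum was 2014 to 2144 in parental cells, 1398 to 1458 in Tw1KD, 1760 to 1827 over the Twist1 and S42A arrays and 3042 to 3206 in S42D, where the endothelial cadherin gene Cdh5 averaged 10.67 log2 against 5.66 in parental cells. The leukocyte and endothelial sums follow few genes. In S42D against Tw1KD, 2 of the 15 endothelial markers were higher, 5 lower and 8 neither at an adjusted p under 0.05 (limma). Of the 21 leukocyte markers 2 were higher, 2 lower and 17 neither. Of the 15 fibroblast markers 5 were higher, 0 lower and 10 neither. Among all genes 21.7% were higher and 21.7% lower in this comparison. The part of these marker levels in the members' differences was not tested.

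The set holds transporters, secreted factors, receptors, signalling enzymes, metabolic enzymes and regulators of transcription. Grouped by role after the members were known, it comprised 10 transporters and channels (6 higher, 4 lower), 17 secreted ligands, matrix proteins and extracellular proteases (2 higher, 15 lower) and 12 receptors and adhesion proteins (2 higher, 10 lower). There were 17 intracellular signalling genes (3 higher, 14 lower), 5 contractile and cytoskeletal genes (all lower), 17 metabolic enzymes (8 higher, 9 lower), 6 genes of the cell cycle, replication and DNA repair (all higher) and 16 genes of transcription, chromatin and RNA (7 higher, 9 lower). The 16 others included 5 higher and 11 lower. The labels are loose: the lysosomal protease gene Ctsc stands with the secreted proteins and the binding protein gene Rbp2 with the enzymes. In 115 of the 116 members every array of the 4 derived lines lay outside the range of the 3 parental arrays, the exception being Phxr4. The rule largely ensures this, since it asks for at least 0.7 log2 and the median SD within a line was 0.066 log2. The count is therefore no separate support for the members. The smallest of a member's 4 differences had a median of 0.86 log2 and the largest a median of 1.66 log2. The smallest difference reached 1 log2 in 38 members, 9 higher and 29 lower. In 13 members, 2 higher and 11 lower, at least 1 line lay in the dim range, where array signal compresses differences.

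The split between higher and lower members depended on how arrays were scaled. When arrays were centred on their medians, the differences from parental cells moved up, with a median over all genes of 0.033 log2 for Tw1KD, 0.12 for Twist1, 0.091 for S42A and 0.080 for S42D. The threshold was then met by 50 higher and 57 lower genes, so that 46.7% were higher in place of 33.6%. All 39 higher members were kept and 20 of the 77 lower members were lost. No member changed direction in any line under this centring or under quantile normalization, which their distance of at least 0.7 log2 from parental cells made likely beforehand.

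**Figure D1:**
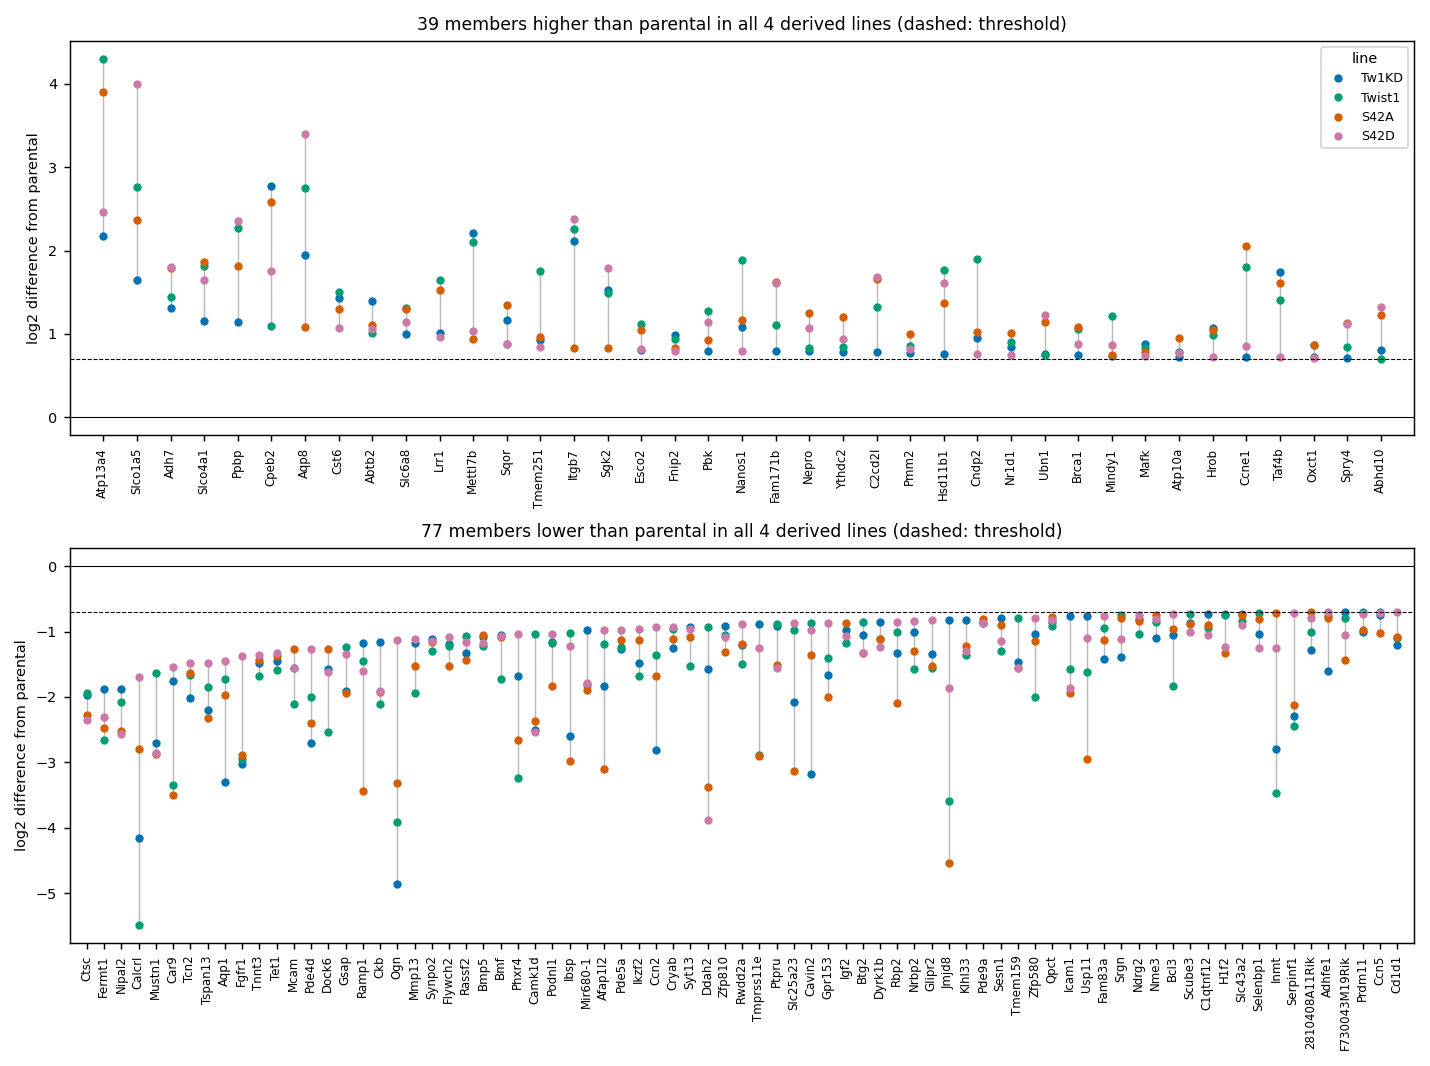
Difference of each of the 116 members from the parental mean (log2, y axis) in the Tw1KD, Twist1, S42A and S42D lines, with genes along the x axis ordered by their smallest difference and the dashed lines at 0.7. Each point is a difference of means of 3 arrays. All points of the 39 higher members lie above the upper line and all points of the 77 lower members below the lower line, and the vertical grey lines show how far the 4 lines lie apart within a gene.

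The values at the edge of the rule form no gap. Among higher genes, Abhd10 (0.705 log2 as its smallest difference), Spry4 (0.714) and Oxct1 (0.715) lay just inside, and Pola1 (0.696), Dtwd2 (0.696) and Depdc7 (0.686) just outside. Among lower genes, Cd1d1 (0.704), Ccn5 (0.705) and Prdm11 (0.705) lay just inside, and Denn2b (0.695), Gdpd2 (0.695) and Rnf122 (0.692) just outside.

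Among the transporters and channels, Atp13a4, which encodes a P5-type ATPase, had the largest common difference of all members. Levels of Atp13a4 (log2) were 6.67, 6.65 and 6.26 for parental cells, 8.57, 8.70 and 8.83 for Tw1KD, 10.87, 10.82 and 10.80 for Twist1, 10.43, 10.47 and 10.38 for S42A and 9.04, 9.04 and 8.89 for S42D. Atp13a4 was higher by 2.17, 4.30, 3.90 and 2.46 log2 in the Tw1KD, Twist1, S42A and S42D lines (SE 0.094 for each), and the 5 lines did not overlap. RefSeq lists a pair of start sites for Atp13a4, and the windows from 250 bases before to 50 bases after each are shown because this gene leads the set. They are printed 5′ to 3′ on the minus strand of GRCm38.p6, at chr16:29541434-29541733 and chr16:29544815-29545114, with capitals for the E-boxes CATCTG or CAGATG and CAGCTG and for the AP-1 motif TGACTCA.
Atp13a4 first window: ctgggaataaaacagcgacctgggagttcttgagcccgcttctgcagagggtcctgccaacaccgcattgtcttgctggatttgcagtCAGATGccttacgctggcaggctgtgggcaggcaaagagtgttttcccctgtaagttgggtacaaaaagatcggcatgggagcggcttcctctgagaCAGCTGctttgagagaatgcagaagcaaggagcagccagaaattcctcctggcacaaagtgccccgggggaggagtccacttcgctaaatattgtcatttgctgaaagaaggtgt
Atp13a4 second window: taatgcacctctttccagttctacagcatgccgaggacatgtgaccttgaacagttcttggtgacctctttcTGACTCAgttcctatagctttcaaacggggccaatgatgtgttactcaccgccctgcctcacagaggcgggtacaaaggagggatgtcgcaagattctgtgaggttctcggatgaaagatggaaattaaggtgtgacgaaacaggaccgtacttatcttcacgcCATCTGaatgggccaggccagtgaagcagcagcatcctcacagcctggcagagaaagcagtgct
The first window holds 1 CAGATG and 1 CAGCTG, and the second holds 1 CATCTG and 1 TGACTCA. These matches describe the letters of the windows and do not show binding.

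The organic anion transporter gene Slco1a5 belongs to a family of similar genes, so the member read is uncertain. Levels of Slco1a5 (log2) were 4.99, 5.74 and 5.69 for parental cells, 7.31, 6.92 and 7.14 for Tw1KD, 8.27, 8.21 and 8.23 for Twist1, 7.72, 7.91 and 7.89 for S42A and 9.60, 9.36 and 9.46 for S42D. Slco1a5 was higher by 1.65, 2.76, 2.37 and 3.9999 log2 in the Tw1KD, Twist1, S42A and S42D lines (SE 0.16 for each), with the highest values in the S42D line and the parental mean in the dim range. Its relative Slco4a1, also an organic anion transporter, was higher by 1.15, 1.82, 1.87 and 1.65 log2 in the Tw1KD, Twist1, S42A and S42D lines (SE 0.043 for each). Slc6a8, which carries creatine into cells, had some of the least variable values. Levels of Slc6a8 (log2) were 10.24, 10.17 and 10.21 for parental cells, 11.18, 11.22 and 11.22 for Tw1KD, 11.55, 11.51 and 11.51 for Twist1, 11.49, 11.50 and 11.53 for S42A and 11.37, 11.32 and 11.34 for S42D. Slc6a8 was higher by 0.9997, 1.32, 1.30 and 1.14 log2 in the Tw1KD, Twist1, S42A and S42D lines (SE 0.036 for each), and all 12 derived arrays lay above the parental ones, from 11.18 to 11.55. Ckb, the cytosolic creatine kinase that acts on the same metabolite, was lower by 1.16, 2.105, 1.93 and 1.91 log2 in the Tw1KD, Twist1, S42A and S42D lines (SE 0.091 for each).

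The water channel genes Aqp8 and Aqp1 went opposite ways. Levels of Aqp8 (log2) were 5.36, 5.90 and 6.04 for parental cells, 7.78, 7.60 and 7.78 for Tw1KD, 8.55, 8.54 and 8.47 for Twist1, 6.74, 6.997 and 6.82 for S42A and 9.23, 9.11 and 9.17 for S42D. Levels of Aqp1 (log2) were 11.23, 11.19 and 11.23 for parental cells, 7.85, 7.92 and 7.99 for Tw1KD, 9.48, 9.54 and 9.45 for Twist1, 9.15, 9.24 and 9.35 for S42A and 9.84, 9.74 and 9.73 for S42D. Aqp8 was higher by 1.95, 2.76, 1.08 and 3.40 log2 in the Tw1KD, Twist1, S42A and S42D lines (SE 0.13 for each), while Aqp1 was lower by 3.30, 1.73, 1.97 and 1.45 log2 in the Tw1KD, Twist1, S42A and S42D lines (SE 0.055 for each). Neither gene had a derived array within the parental range, and Aqp1 was lowest in Tw1KD cells. The phospholipid flippase gene Atp10a was higher by 0.73 to 0.96 log2. Lower members were Nipal2, a relative of magnesium transporters (1.87 to 2.57 log2, dim in 3 lines), Slc25a23, a mitochondrial carrier of ATP and phosphate (0.87 to 3.13 log2), and Slc43a2, a carrier of neutral amino acids (0.73 to 0.90 log2).

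Secreted and matrix proteins were mostly lower. With median centring 12 of these 17 members still met the threshold, and under quantile normalization 15 did. The largest differences in the group were those of Ogn, osteoglycin, a small leucine-rich proteoglycan of connective tissue. Levels of Ogn (log2) were 10.27, 10.14 and 10.18 for parental cells, 5.17, 5.33 and 5.53 for Tw1KD, 6.35, 6.24 and 6.25 for Twist1, 6.64, 6.95 and 7.07 for S42A and 9.22, 9.07 and 8.89 for S42D. Ogn was lower by 4.85, 3.92, 3.31 and 1.14 log2 in the Tw1KD, Twist1, S42A and S42D lines (SE 0.11 for each), with Tw1KD farthest from parental cells and S42D nearest, and no 2 lines overlapped. The Tw1KD mean was in the dim range, so the difference there may be understated. Another gene of that protein class, Podnl1, was lower by 1.04 to 1.83 log2. The matricellular gene Ccn2, a widely used target of the YAP coactivator, read 11.05, 11.02 and 11.06 for parental cells, 8.23, 8.28 and 8.19 for Tw1KD, 9.68, 9.70 and 9.68 for Twist1, 9.33, 9.45 and 9.30 for S42A and 10.19, 10.06 and 10.08 for S42D. Ccn2 was lower by 2.81, 1.35, 1.68 and 0.93 log2 in the Tw1KD, Twist1, S42A and S42D lines (SE 0.047 for each), in the same order of lines at both ends as Ogn. Its relative Ccn5, which lacks the C-terminal cystine knot of the family, was lower by 0.71 to 1.03 log2. The summed intensity of the fibroblast markers lay below the parental range in Tw1KD cells and above it in the Twist1, S42A and S42D lines, where Ogn and Ccn2 were lower than in parental cells. Single fibroblast markers did not all follow that sum. Pdgfra, a growth factor receptor of mesenchymal cells, averaged 11.29 log2 in parental cells, 9.60 in Tw1KD, 9.83 in Twist1, 10.85 in S42A and 11.38 in S42D, and Dcn averaged 6.02, 5.46, 5.40, 5.86 and 6.24 in the same order. For both, as for Ogn, the Tw1KD and Twist1 means were the lowest and S42D the highest of the derived lines. Col1a1 did not share that order. It averaged 7.71 log2 in parental cells, 7.49 in Tw1KD, 7.31 in Twist1, 7.43 in S42A and 7.47 in S42D. Whether these markers bear on the levels of Ogn and Ccn2 was not tested.

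Of the proteases and their inhibitors, the collagenase gene Mmp13 read 8.52, 8.34 and 8.48 for parental cells, 7.33, 7.20 and 7.30 for Tw1KD, 6.38, 6.64 and 6.496 for Twist1, 6.68, 6.93 and 7.13 for S42A and 7.36, 7.21 and 7.42 for S42D. Mmp13 was lower by 1.17, 1.94, 1.53 and 1.12 log2 in the Tw1KD, Twist1, S42A and S42D lines (SE 0.10 for each), and the S42D and Tw1KD arrays overlapped. Serpinf1, which encodes pigment epithelium-derived factor, an antiangiogenic serpin, was lower by 2.29, 2.44, 2.13 and 0.71 log2 in the Tw1KD, Twist1, S42A and S42D lines (SE 0.071 for each). Its S42D arrays, at 9.63, 9.41 and 9.56, lay between the parental arrays, at 10.29, 10.29 and 10.15, and those of every other line. The lysosomal protease gene Ctsc, cathepsin C, read 6.53, 6.45 and 6.75 for parental cells, 4.60, 4.58 and 4.63 for Tw1KD, 4.64, 4.66 and 4.61 for Twist1, 4.46, 4.15 and 4.30 for S42A and 4.34, 4.22 and 4.11 for S42D. All 4 derived lines lay in the dim range, so its differences of 1.94 to 2.35 log2 start from a low level and may be compressed by array background. The membrane serine protease gene Tmprss11e was lower by 0.88, 2.89, 2.91 and 1.25 log2 in the Tw1KD, Twist1, S42A and S42D lines (SE 0.11 for each), with Twist1 and S42A lowest. Cst6, a secreted inhibitor of cysteine proteases, was 1 of the 2 higher members of this group. Levels of Cst6 (log2) were 7.69, 7.76 and 7.58 for parental cells, 9.13, 9.09 and 9.10 for Tw1KD, 9.19, 9.21 and 9.16 for Twist1, 8.93, 8.93 and 9.06 for S42A and 8.86, 8.69 and 8.69 for S42D, and it was higher by 1.43, 1.51, 1.30 and 1.07 log2 in the Tw1KD, Twist1, S42A and S42D lines (SE 0.058 for each).

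The other higher member was Ppbp, which encodes the CXC chemokine precursor of CXCL7. Levels of Ppbp (log2) were 6.80, 6.82 and 6.98 for parental cells, 8.08, 7.92 and 8.03 for Tw1KD, 9.13, 9.14 and 9.15 for Twist1, 8.68, 8.68 and 8.68 for S42A and 9.33, 9.01 and 9.33 for S42D. Ppbp was higher by 1.14, 2.27, 1.82 and 2.36 log2 in the Tw1KD, Twist1, S42A and S42D lines (SE 0.077 for each), with Tw1KD nearest to parental cells. The lower members included 2 growth factor ligands. Igf2, an imprinted insulin-like growth factor, was lower by 0.97, 1.17, 0.86 and 1.07 log2 in the Tw1KD, Twist1, S42A and S42D lines (SE 0.068 for each), and Bmp5, a ligand of bone morphogenetic protein receptors, was lower by 1.09, 1.22, 1.06 and 1.18 log2 in the Tw1KD, Twist1, S42A and S42D lines (SE 0.096 for each). Bmp5 read 6.73, 6.55 and 6.70 in parental cells and between 5.29 and 5.74 on all other arrays, and 2 of its lines were in the dim range. Ibsp, bone sialoprotein, was lower by 2.59, 1.02, 2.98 and 1.22 log2 in the Tw1KD, Twist1, S42A and S42D lines (SE 0.15 for each), and its Tw1KD and S42A arrays lay below those of the Twist1 and S42D lines. The remaining lower members were Tcn2, the plasma carrier of vitamin B12 (1.48 to 2.02 log2), Scube3, a secreted signalling protein (0.73 to 1.01 log2), the adipokine C1qtnf12 (0.73 to 1.05 log2) and the secretory granule proteoglycan Srgn (0.75 to 1.39 log2, dim in 2 lines).

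Among receptors, Calcrl and Ramp1 were both lower in all 4 lines. Calcrl is the receptor for adrenomedullin and calcitonin gene-related peptide, and Ramp1 is the accessory protein with which it forms the receptor for the latter. Because their products form 1 receptor, their RefSeq promoter windows are shown, from 250 bases before to 50 after the start, printed 5′ to 3′ from GRCm38.p6. The Calcrl window is chr2:84425217-84425516 on the minus strand and the Ramp1 window chr1:91179572-91179871 on the plus strand, and capitals mark the E-box CACCTG or CAGGTG.
Calcrl: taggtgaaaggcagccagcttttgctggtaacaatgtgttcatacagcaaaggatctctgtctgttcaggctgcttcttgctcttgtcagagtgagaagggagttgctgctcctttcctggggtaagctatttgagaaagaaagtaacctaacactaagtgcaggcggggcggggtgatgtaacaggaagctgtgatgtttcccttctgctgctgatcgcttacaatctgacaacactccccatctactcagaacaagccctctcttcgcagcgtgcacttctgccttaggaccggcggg
Ramp1: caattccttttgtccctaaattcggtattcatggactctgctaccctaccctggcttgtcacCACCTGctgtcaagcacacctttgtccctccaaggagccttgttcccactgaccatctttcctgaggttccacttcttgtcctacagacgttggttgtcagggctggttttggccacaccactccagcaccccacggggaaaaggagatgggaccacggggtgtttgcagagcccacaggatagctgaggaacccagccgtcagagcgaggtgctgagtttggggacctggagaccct
The Calcrl window holds none of the motifs searched, and the Ramp1 window holds 1 CACCTG. Nothing about a factor follows from either.

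Levels of Calcrl (log2) were 10.52, 10.49 and 10.50 for parental cells, 6.43, 6.17 and 6.46 for Tw1KD, 5.06, 4.85 and 5.15 for Twist1, 7.63, 7.76 and 7.73 for S42A and 8.90, 8.71 and 8.82 for S42D. Calcrl was lower by 4.15, 5.48, 2.80 and 1.70 log2 in the Tw1KD, Twist1, S42A and S42D lines (SE 0.084 for each), and the 3 arrays of each line stood apart from those of every other line. Levels of Ramp1 (log2) were 10.16, 10.24 and 10.40 for parental cells, 9.13, 8.99 and 9.15 for Tw1KD, 8.82, 8.79 and 8.82 for Twist1, 6.85, 6.69 and 6.96 for S42A and 8.64, 8.66 and 8.70 for S42D. Ramp1 was lower by 1.18, 1.46, 3.43 and 1.60 log2 in the Tw1KD, Twist1, S42A and S42D lines (SE 0.071 for each). The line with the lowest level differed between the 2 genes, being the Twist1 line for Calcrl, whose mean was in the dim range there, and the S42A line for Ramp1.

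Fgfr1, a receptor tyrosine kinase for fibroblast growth factors, read 9.91, 9.69 and 9.81 for parental cells, 6.83, 6.81 and 6.66 for Tw1KD, 6.87, 6.81 and 6.89 for Twist1, 7.02, 6.86 and 6.89 for S42A and 8.56, 8.32 and 8.38 for S42D. Fgfr1 was lower by 3.03, 2.94, 2.88 and 1.38 log2 in the Tw1KD, Twist1, S42A and S42D lines (SE 0.074 for each), with the Tw1KD, Twist1 and S42A arrays all at 6.66 to 7.02 and S42D between them and parental cells. The S42A arrays lay above those of Tw1KD, a difference that missed the threshold (0.15 ± 0.074 log2, adjusted p = 0.13). Mcam, an adhesion molecule of the immunoglobulin superfamily, was lower by 1.55, 2.101, 1.27 and 1.56 log2 in the Tw1KD, Twist1, S42A and S42D lines (SE 0.056 for each). Icam1, the ligand of leukocyte integrins, was lower by 0.77, 1.57, 1.93 and 1.87 log2 in the Tw1KD, Twist1, S42A and S42D lines (SE 0.11 for each), with Tw1KD nearest to parental cells. Fermt1, kindlin-1, which activates integrins, was lower by 1.87, 2.66, 2.47 and 2.31 log2 in the Tw1KD, Twist1, S42A and S42D lines (SE 0.090 for each), and 3 of these lines were in the dim range. The integrin subunit gene Itgb7 was higher. Levels of Itgb7 (log2) were 7.39, 7.22 and 7.47 for parental cells, 9.53, 9.40 and 9.50 for Tw1KD, 9.62, 9.69 and 9.56 for Twist1, 8.11, 8.22 and 8.25 for S42A and 9.68, 9.73 and 9.80 for S42D, so that the S42A arrays lay between the parental arrays and those of the 3 other lines. Itgb7 was higher by 2.11, 2.26, 0.83 and 2.38 log2 in the Tw1KD, Twist1, S42A and S42D lines (SE 0.067 for each). The membrane protein gene Fam171b was higher by 0.79 to 1.62 log2. Lower members were the tetraspanin Tspan13 (1.48 to 2.32 log2), the orphan receptor Gpr153 (0.87 to 1.99 log2), the receptor phosphatase Ptpru (0.88 to 1.56 log2) and Cd1d1, which presents lipid antigens (0.70 to 1.2002 log2). Cd1d1 has a near-identical copy, so which gene was read is uncertain.

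Within intracellular signalling, 3 cyclic nucleotide phosphodiesterases were lower: Pde4d, which degrades cyclic AMP, and Pde5a and Pde9a, which degrade cyclic GMP. Levels of Pde4d (log2) were 9.77, 9.64 and 9.82 for parental cells, 7.09, 7.26 and 6.77 for Tw1KD, 7.70, 7.78 and 7.72 for Twist1, 7.25, 7.44 and 7.34 for S42A and 8.44, 8.50 and 8.49 for S42D. Pde4d was lower by 2.70, 2.01, 2.398 and 1.27 log2 in the Tw1KD, Twist1, S42A and S42D lines (SE 0.094 for each). Levels of Pde5a (log2) were 6.59, 6.68 and 6.78 for parental cells, 5.53, 5.43 and 5.30 for Tw1KD, 5.44, 5.49 and 5.41 for Twist1, 5.51, 5.52 and 5.64 for S42A and 5.67, 5.78 and 5.67 for S42D. Pde5a was lower by 1.26, 1.23, 1.12 and 0.97 log2 in the Tw1KD, Twist1, S42A and S42D lines (SE 0.065 for each), ending near the dim limit. Pde9a was the member with the smallest spread among derived lines, and it was lower by 0.87, 0.86, 0.80 and 0.87 log2 in the Tw1KD, Twist1, S42A and S42D lines (SE 0.072 for each), dim in all 4. The contractile-cell gene Synpo2, which encodes an actin-binding protein of smooth and striated muscle, lies near Pde5a, with 4 measured genes between them. Synpo2 was lower by 1.12, 1.30, 1.15 and 1.15 log2 in the Tw1KD, Twist1, S42A and S42D lines (SE 0.14 for each), and its 12 derived arrays lay between 5.33 and 5.84 against 6.73, 6.53 and 7.14 in parental cells. Its derived levels, like those of Pde5a, were thus close to the dim limit, where differences may be compressed.

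The promoter windows of these neighbours, which shifted alike, are shown from RefSeq GRCm38.p6, 5′ to 3′, Pde5a at chr3:122728908-122729207 on the plus strand and Synpo2 at chr3:123236100-123236399 on the minus strand. Capitals mark CAGATG and also CACCTG or CAGGTG and CGCG.
Pde5a: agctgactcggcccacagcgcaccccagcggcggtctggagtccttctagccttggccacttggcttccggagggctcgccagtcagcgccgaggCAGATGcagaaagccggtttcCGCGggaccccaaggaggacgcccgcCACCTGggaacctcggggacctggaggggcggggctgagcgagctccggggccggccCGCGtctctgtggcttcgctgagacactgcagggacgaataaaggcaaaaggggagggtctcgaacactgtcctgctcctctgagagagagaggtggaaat
Synpo2: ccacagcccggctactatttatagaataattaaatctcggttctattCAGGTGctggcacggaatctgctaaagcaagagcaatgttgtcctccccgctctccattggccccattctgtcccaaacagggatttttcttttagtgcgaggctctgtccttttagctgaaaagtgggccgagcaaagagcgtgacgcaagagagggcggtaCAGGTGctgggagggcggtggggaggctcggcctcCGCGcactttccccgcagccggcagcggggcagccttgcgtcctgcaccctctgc
The Pde5a window holds 1 CAGATG, with 1 CACCTG and 2 CGCG, and the Synpo2 window holds 2 CAGGTG and 1 CGCG. The genes between them did not meet the rule: Usp53, for example, differed by 0.66, -0.13, -0.39 and -0.027 log2 in the Tw1KD, Twist1, S42A and S42D lines.

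Dock6, an exchange factor for the small GTPases Rac and Cdc42, read 11.39, 11.46 and 11.47 for parental cells, 9.87, 9.80 and 9.92 for Tw1KD, 8.90, 8.95 and 8.86 for Twist1, 10.13, 10.15 and 10.26 for S42A and 9.83, 9.80 and 9.82 for S42D. Dock6 was lower by 1.58, 2.54, 1.26 and 1.62 log2 in the Tw1KD, Twist1, S42A and S42D lines (SE 0.047 for each), lowest in the Twist1 line. Afap1l2, an adaptor of Src kinase signalling, was lower by 1.83, 1.18, 3.11 and 0.98 log2 in the Tw1KD, Twist1, S42A and S42D lines (SE 0.066 for each), lowest in the S42A line. Camk1d, a calcium and calmodulin-dependent kinase, was lower by 2.50, 1.04, 2.37 and 2.53 log2 in the Tw1KD, Twist1, S42A and S42D lines (SE 0.15 for each), with the Twist1 line nearest to parental cells. Lower by 0.80 to 1.30 log2 was Sesn1, a p53 target that restrains mTORC1, and by 1.05 to 1.73 log2 Bmf, a proapoptotic BH3-only protein. Other lower members were Gsap, an activator of gamma-secretase (1.24 to 1.93 log2), the Ras-association protein Rassf2 (1.07 to 1.43 log2), the kinase Dyrk1b (0.86 to 1.24 log2), the pseudokinase Nrbp2 (0.84 to 1.58 log2), Fam83a (0.76 to 1.42 log2) and Ndrg2 (0.74 to 1.03 log2). The higher members were the kinase Sgk2 (0.83 to 1.79 log2), the folliculin partner Fnip2 (0.80 to 0.99 log2) and Spry4, an inhibitor of receptor tyrosine kinase signalling (0.71 to 1.13 log2).

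All 5 members grouped as contractile and cytoskeletal were lower, a loose label that also covers a heat shock protein and a coat protein of caveolae. Tnnt3, the troponin T of fast skeletal muscle, read 8.61, 8.45 and 8.95 for parental cells, 7.25, 7.30 and 7.01 for Tw1KD, 6.91, 7.05 and 7.001 for Twist1, 7.30, 7.30 and 7.10 for S42A and 7.30, 7.35 and 7.30 for S42D. Tnnt3 was lower by 1.48, 1.68, 1.44 and 1.35 log2 in the Tw1KD, Twist1, S42A and S42D lines (SE 0.11 for each), and the Twist1 arrays lay below those of S42A and S42D, with the Tw1KD arrays overlapping all 3. Only S42D and the Twist1 line differed beyond the threshold (0.33 ± 0.11 log2, adjusted p = 0.023). Mustn1, a small protein of muscle and skeleton, was lower by 2.71, 1.63, 2.87 and 2.86 log2 in the Tw1KD, Twist1, S42A and S42D lines (SE 0.090 for each). Cavin2, a coat protein of caveolae, read 8.51, 8.51 and 8.70 for parental cells, 5.45, 5.19 and 5.53 for Tw1KD, 7.64, 7.71 and 7.75 for Twist1, 7.17, 7.16 and 7.32 for S42A and 7.68, 7.55 and 7.57 for S42D, lowest in Tw1KD cells, where it was in the dim range. Cavin2 was lower by 3.18, 0.87, 1.36 and 0.97 log2 in the Tw1KD, Twist1, S42A and S42D lines (SE 0.082 for each). Cryab, a small heat shock protein abundant in muscle and lens, was lower by 0.93 to 1.26 log2.

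Metabolic enzymes went both ways. Adh7, an alcohol dehydrogenase active on retinol, read 8.77, 8.54 and 8.94 for parental cells, 10.14, 9.92 and 10.11 for Tw1KD, 10.20, 10.20 and 10.17 for Twist1, 10.50, 10.57 and 10.56 for S42A and 10.60, 10.52 and 10.54 for S42D. Adh7 was higher by 1.31, 1.45, 1.79 and 1.81 log2 in the Tw1KD, Twist1, S42A and S42D lines (SE 0.083 for each). Other higher enzymes were Mettl7b (0.94 to 2.22 log2), the sulfide quinone oxidoreductase Sqor (0.88 to 1.34 log2), Hsd11b1, which regenerates active glucocorticoid (0.76 to 1.77 log2, dim in parental cells), Pmm2 of protein glycosylation (0.77 to 1.002 log2), the dipeptidase Cndp2 (0.76 to 1.90 log2), Oxct1, which uses ketone bodies (0.72 to 0.87 log2), and Abhd10 (0.71 to 1.32 log2). Car9, a membrane carbonic anhydrase induced by hypoxia, read 11.75, 11.73 and 11.68 for parental cells, 9.98, 9.96 and 9.96 for Tw1KD, 8.47, 8.40 and 8.24 for Twist1, 8.05, 8.22 and 8.41 for S42A and 10.23, 10.12 and 10.20 for S42D. Car9 was lower by 1.76, 3.35, 3.49 and 1.54 log2 in the Tw1KD, Twist1, S42A and S42D lines (SE 0.076 for each), with the Twist1 and S42A lines at the lowest levels.

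Inmt, a methyltransferase of indoles and amines, read 11.29, 11.23 and 11.38 for parental cells, 8.50, 8.46 and 8.54 for Tw1KD, 7.93, 7.88 and 7.70 for Twist1, 10.52, 10.61 and 10.59 for S42A and 10.04, 9.9999 and 10.10 for S42D. Inmt was lower by 2.80, 3.47, 0.72 and 1.25 log2 in the Tw1KD, Twist1, S42A and S42D lines (SE 0.059 for each), and the S42A arrays came nearest to parental ones. Ddah2, which belongs to the family that degrades asymmetric dimethylarginine, was lower by 1.58, 0.93, 3.38 and 3.88 log2 in the Tw1KD, Twist1, S42A and S42D lines (SE 0.14 for each), with the opposite order of the S42A and Twist1 lines. Lower by smaller amounts were Rbp2, a retinol-binding protein (0.85 to 2.09 log2), Adhfe1 (0.71 to 1.60 log2), Selenbp1 (0.72 to 1.25 log2), the nucleoside diphosphate kinase Nme3 (0.74 to 1.09 log2) and Qpct, glutaminyl cyclase (0.78 to 0.92 log2, dim in all 4 derived lines).

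The 6 members of the cell cycle, replication and DNA repair group were all higher. Ccne1, cyclin E1, which drives entry into S phase, read 8.84, 8.79 and 8.81 for parental cells, 9.64, 9.42 and 9.55 for Tw1KD, 10.63, 10.65 and 10.57 for Twist1, 10.87, 10.92 and 10.83 for S42A and 9.69, 9.62 and 9.71 for S42D. Ccne1 was higher by 0.72, 1.80, 2.06 and 0.86 log2 in the Tw1KD, Twist1, S42A and S42D lines (SE 0.053 for each), with Tw1KD and S42D overlapping at the lower derived level. Esco2, an acetyltransferase of cohesin, was higher by 0.80, 1.12, 1.05 and 0.82 log2 in the Tw1KD, Twist1, S42A and S42D lines (SE 0.058 for each), and its next measured gene, the mitotic kinase gene Pbk, was higher by 0.80, 1.27, 0.93 and 1.15 log2 in the Tw1KD, Twist1, S42A and S42D lines (SE 0.051 for each). Brca1, of homologous recombination repair, read 8.36, 8.17 and 8.49 for parental cells, 9.06, 9.003 and 9.19 for Tw1KD, 9.45, 9.36 and 9.39 for Twist1, 9.37, 9.41 and 9.48 for S42A and 9.28, 9.25 and 9.13 for S42D. Brca1 was higher by 0.75, 1.06, 1.08 and 0.88 log2 in the Tw1KD, Twist1, S42A and S42D lines (SE 0.075 for each), and every derived array lay above the highest parental one. The replication and repair genes Lrr1 and Hrob were higher by 0.97 to 1.64 and 0.73 to 1.07 log2. Under quantile normalization 5 of these 6 genes still met the threshold, and with median centring all 6 did.

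**Figure D2:**
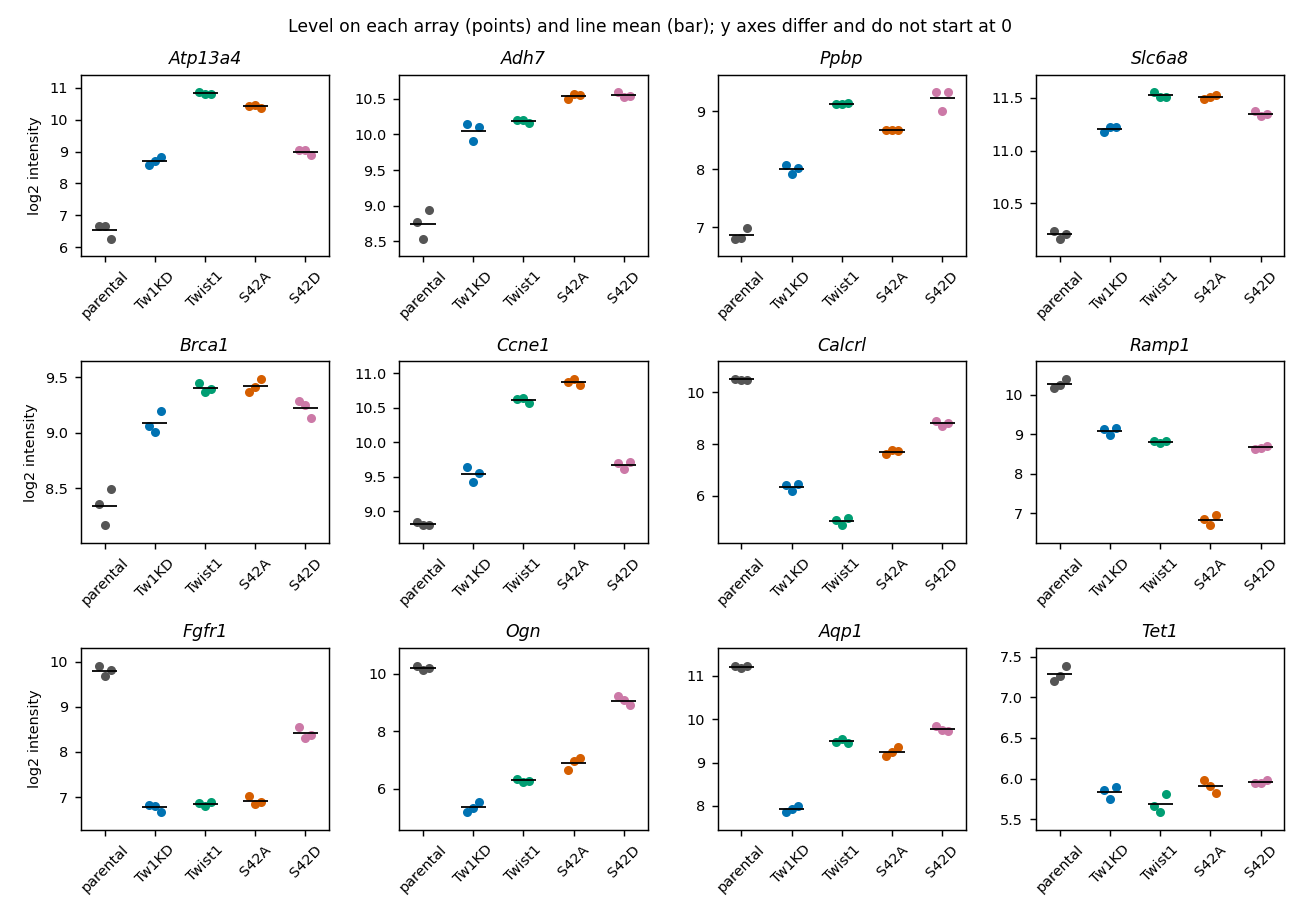
Level (log2 intensity, y axis, which differs between panels and does not start at 0) of 12 members on each of the 3 arrays of the parental, Tw1KD, Twist1, S42A and S42D lines, points for arrays and bars for line means. In each panel all 12 derived arrays lie on one side of the 3 parental arrays, as the rule largely ensures, while the order of the derived lines differs from gene to gene.

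Among regulators of transcription, chromatin and RNA, Tet1, which oxidises 5-methylcytosine in DNA, read 7.20, 7.26 and 7.39 for parental cells, 5.86, 5.74 and 5.90 for Tw1KD, 5.67, 5.59 and 5.81 for Twist1, 5.98, 5.91 and 5.82 for S42A and 5.94, 5.95 and 5.98 for S42D. Tet1 was lower by 1.45, 1.59, 1.38 and 1.33 log2 in the Tw1KD, Twist1, S42A and S42D lines (SE 0.066 for each), and the derived lines lay within 0.27 log2 of each other. Ikzf2, the zinc finger factor Helios, was lower by 1.48, 1.68, 1.13 and 0.96 log2 in the Tw1KD, Twist1, S42A and S42D lines (SE 0.050 for each). Bcl3, a nuclear IkB protein, was lower by 0.74 to 1.83 log2 and Btg2, an antiproliferative p53 target, by 0.86 to 1.33 log2. Zfp580 (0.79 to 2.001 log2), Zfp810 (0.91 to 1.31 log2), Prdm11 (0.71 to 1.01 log2) and the linker histone gene H1f2 (0.73 to 1.32 log2) were lower as well. Histone and zinc finger genes have close relatives, so cross-reading is possible for H1f2 and Zfp810.

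The higher members of this group included 2 regulators of messenger RNA translation. Cpeb2, which binds polyadenylation elements, was higher by 2.78, 1.10, 2.58 and 1.76 log2 in the Tw1KD, Twist1, S42A and S42D lines (SE 0.082 for each), and Nanos1 was higher by 1.08, 1.88, 1.16 and 0.80 log2 in the Tw1KD, Twist1, S42A and S42D lines (SE 0.082 for each). Taf4b, a subunit of TFIID, was higher by 0.72 to 1.74 log2, the circadian repressor Nr1d1 by 0.75 to 1.01 log2, and the small Maf factor Mafk by 0.73 to 0.88 log2. The histone chaperone component Ubn1 (0.75 to 1.23 log2) and the m6A reader Ythdc2 (0.79 to 1.21 log2) completed the group.

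The probe set annotated to Mir680-1 was the only microRNA gene in the set. Its mature product, from RefSeq at chr6:129691541-129691561 on the plus strand of GRCm38.p6, is shown with the seed, bases 2 to 8, in capitals.
mmu-miR-680: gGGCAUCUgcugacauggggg
The same 21-base sequence is listed for 3 genes, so the locus is uncertain, and whole-transcript arrays do not separate a mature microRNA from its precursor. Levels of Mir680-1 (log2) were 8.45, 9.33 and 8.33 for parental cells, 7.65, 8.29 and 7.23 for Tw1KD, 7.32, 6.59 and 6.76 for Twist1, 6.59, 6.42 and 7.41 for S42A and 6.97, 7.33 and 6.42 for S42D. Mir680-1 was lower by 0.98, 1.81, 1.90 and 1.79 log2 in the Tw1KD, Twist1, S42A and S42D lines (SE 0.35 for each), the second largest error of all members, and Tw1KD replicate 2 (8.29) lay just under the lowest parental array (8.33). Phxr4, annotated as a per-hexamer repeat gene, had the largest error and read 8.65, 9.25 and 9.45 for parental cells, 7.22, 7.27 and 7.80 for Tw1KD, 6.09, 5.89 and 5.65 for Twist1, 6.39, 6.28 and 6.73 for S42A and 8.201, 8.98 and 7.04 for S42D. Its S42D arrays overlapped with the parental arrays.

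Of the 16 members outside these groups, the largest differences were those of Jmjd8, a JmjC-domain protein of the endoplasmic reticulum. Levels of Jmjd8 (log2) were 11.30, 11.19 and 11.24 for parental cells, 10.41, 10.42 and 10.43 for Tw1KD, 7.69, 7.72 and 7.54 for Twist1, 6.496, 7.02 and 6.59 for S42A and 9.36, 9.39 and 9.41 for S42D. Jmjd8 was lower by 0.82, 3.59, 4.54 and 1.86 log2 in the Tw1KD, Twist1, S42A and S42D lines (SE 0.099 for each), with Tw1KD nearest to parental cells and S42A farthest. The deubiquitinase gene Usp11 was lower by 0.77, 1.62, 2.94 and 1.10 log2 in the Tw1KD, Twist1, S42A and S42D lines (SE 0.057 for each), with the same lines at the ends. Other lower members were Flywch2 (1.09 to 1.53 log2), the synaptotagmin Syt13 (0.93 to 1.52 log2), Rwdd2a (0.89 to 1.502 log2), Glipr2 (0.83 to 1.55 log2), Klhl33 (0.82 to 1.36 log2), Tmem159 (0.80 to 1.56 log2) and the clone-named 2810408A11Rik (0.71 to 1.29 log2) and F730043M19Rik (0.71 to 1.44 log2). Higher were Abtb2 (1.01 to 1.398 log2), Tmem251 (0.84 to 1.76 log2), Nepro (0.79 to 1.25 log2), C2cd2l (0.79 to 1.69 log2) and the deubiquitinase Mindy1 (0.74 to 1.22 log2).

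The derived lines shared the direction of these differences but not their size. The range of a member's 4 derived line means had a median of 0.692 log2, against 0.310 log2 over all genes. It was under 0.25 log2 in 10 members, 1 log2 or more in 39 and 2 log2 or more in 15. The rule sets no upper limit to a difference, so a wide range is possible for any member. Choosing large differences also favours genes that vary between lines, so part of the excess over all genes follows from the selection. Among lower members the smallest difference from parental cells fell in the S42D line for 32 of 77, in Tw1KD for 20, in the Twist1 line for 16 and in S42A for 9. Among higher members it fell in Tw1KD for 19 of 39, in S42D for 12, and in the Twist1 and S42A lines for 4 each.

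**Figure D3:**
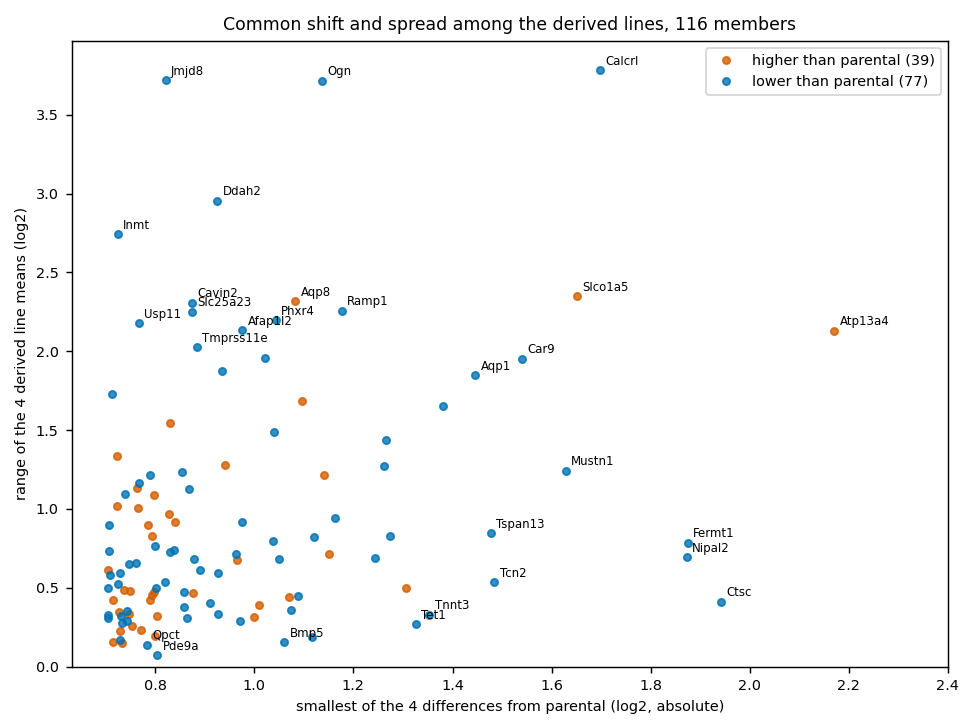
Range of the 4 derived line means (log2, y axis) against the smallest of the 4 differences from parental cells (log2, absolute, x axis) for the 116 members, each point a gene, higher members in orange and lower members in blue. Pde9a, Qpct, Bmp5, Tnnt3 and Tet1 lie low on the y axis, whereas Calcrl, Ogn and Jmjd8 lie at the top, near 3.7 log2.

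Differences between derived lines were not the contrasts of the rule and were tested, with limma over all 19937 genes and Benjamini-Hochberg adjustment, 2-sided, called at an adjusted p under 0.05. The rule sets no direction for them, though it bounds how far a member can return toward its parental level. Each such difference is also the gap between differences from parental cells that the rule did use. Choosing large differences favours genes that change much, and the background over all genes includes dim ones. A larger share called among members than among all genes is thus expected in part from the selection. A change is called away from parental when it enlarges the difference from parental cells and toward parental when it reduces it. Comparisons that have a line in common share its 3 arrays and are not independent of each other, so their values stand side by side.

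The Twist1 line was set against Tw1KD to see which members differed between the depleted line and the line given wild-type Twist1. Of the 116 members 78 (67.2%) were called, where 48% of all genes were. They rose in 46 cases and fell in 32, where 23.5% of all genes rose and 24.5% fell. That balance depended on scaling. With median centring 64.3% of the called genes rose in place of 49.0%, and 68.9% of the called members in place of 59.0%. With a difference of at least 1 log2 as well, 18 members (15.5%) were called, against 4.84% of all genes. Among higher members 19 moved away from parental and 4 toward, and among lower members 28 moved away and 27 toward. The latter numbers were 21 and 28 with median centring. Cavin2 rose (2.31 ± 0.082 log2, adjusted p = 2.2e-11), as did Atp13a4 (2.13 ± 0.094 log2, adjusted p = 1.9e-10), Ibsp (1.57 ± 0.15 log2, adjusted p = 6.1e-07) and Aqp1 (1.57 ± 0.055 log2, adjusted p = 1.9e-11). Jmjd8 fell (-2.77 ± 0.099 log2, adjusted p = 2.4e-11), and so did Tmprss11e (-2.002 ± 0.11 log2, adjusted p = 1.7e-09), Cpeb2 (-1.68 ± 0.082 log2, adjusted p = 5e-10) and Car9 (-1.59 ± 0.076 log2, adjusted p = 4.4e-10). In these 8 genes the arrays of the 2 lines did not overlap.

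Against the same Tw1KD arrays, 76 members (65.5%) were called in the S42A line, where 42.5% of all genes were. Of these members 39 rose and 37 fell, against 22.8% and 19.7% of all genes. Centring raised the share of called genes that rose from 53.6% to 63.1% and that of called members from 51.3% to 55.8%. At 1 log2 or more these were 19 members (16.4%) and 4.84% of all genes. Higher members moved away from parental in 22 cases and toward it in 6, and lower members away in 31 and toward in 17. Inmt rose (2.08 ± 0.059 log2, adjusted p = 1.7e-12), with Cavin2 (1.82 ± 0.082 log2, adjusted p = 2.1e-10), Atp13a4 (1.73 ± 0.094 log2, adjusted p = 1.7e-09) and Ogn (1.54 ± 0.11 log2, adjusted p = 3.4e-08). Jmjd8 fell most (-3.72 ± 0.099 log2, adjusted p = 9.5e-13), followed by Ramp1 (-2.26 ± 0.071 log2, adjusted p = 5.2e-12), Usp11 (-2.18 ± 0.057 log2, adjusted p = 7.8e-13) and Tmprss11e (-2.03 ± 0.11 log2, adjusted p = 1.6e-09).

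In the S42D line 77 members (66.4%) were called against Tw1KD, where 43.4% of all genes were, and 20 members (17.2%) at 1 log2 or more, where 4.55% of all genes were. In total 48 members rose and 29 fell, where 21.7% of all genes did each, and centring moved the share rising from 62.3% to 67.1% of called members and from 49.98% to 58.6% of called genes. Higher members moved away in 17 cases and toward parental in 11, and lower members away in 18 and toward in 31. The largest rises were those of Ogn (3.72 ± 0.11 log2, adjusted p = 2.9e-12), Calcrl (2.45 ± 0.084 log2, adjusted p = 1.3e-11), Slco1a5 (2.35 ± 0.16 log2, adjusted p = 1.6e-08) and Cavin2 (2.21 ± 0.082 log2, adjusted p = 2.9e-11), with the Tw1KD means of Ogn and Cavin2 in the dim range. Ddah2 fell (-2.30 ± 0.14 log2, adjusted p = 4.3e-09), with Mettl7b (-1.18 ± 0.079 log2, adjusted p = 1.6e-08), Icam1 (-1.10 ± 0.11 log2, adjusted p = 1.5e-06) and Jmjd8 (-1.03 ± 0.099 log2, adjusted p = 7e-07). Fgfr1 rose as well (1.65 ± 0.074 log2, adjusted p = 2.4e-10).

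**Figure D4:**
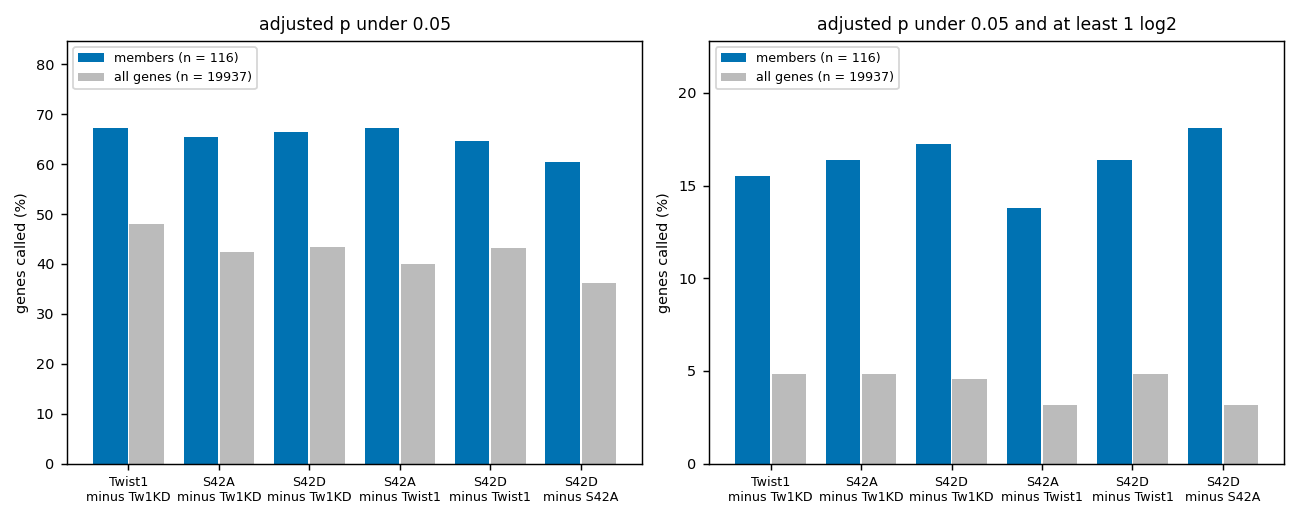
Share of genes called (%, y axis) in each of the 6 comparisons of derived lines (x axis), for the 116 members in blue and all 19937 genes in grey, at an adjusted p under 0.05 (left) and with a difference of at least 1 log2 as well (right). In the left panel members stand between 60.3% and 67.2% and all genes between 36.1% and 48%, and in the right panel members between 13.8% and 18.1% and all genes between 3.16% and 4.84%. Part of this gap follows from choosing members for large differences from parental cells.

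The lines carrying Twist1, 1 for each residue at position 42, were also compared among themselves. Between S42A and the Twist1 line 78 members (67.2%) were called, where 40% of all genes were, and 16 (13.8%) at 1 log2 or more, where 3.16% of all genes were. Members were higher in S42A in 33 cases and lower in 45, where 20% of all genes were each. Median centring moved the share higher in S42A from 42.3% to 36.1% of called members and from 49.96% to 43.3% of called genes. Inmt (2.74 ± 0.059 log2, adjusted p = 2.2e-13), Calcrl (2.68 ± 0.084 log2, adjusted p = 1.1e-11), Cpeb2 (1.49 ± 0.082 log2, adjusted p = 3.2e-09) and Dock6 (1.27 ± 0.047 log2, adjusted p = 5.6e-11) were higher in S42A. Ddah2 (-2.46 ± 0.14 log2, adjusted p = 3.4e-09), Slc25a23 (-2.15 ± 0.070 log2, adjusted p = 1.5e-11), Ramp1 (-1.98 ± 0.071 log2, adjusted p = 4e-11) and Ibsp (-1.96 ± 0.15 log2, adjusted p = 1e-07) were lower. Calcrl and its partner Ramp1 thus differed in opposite directions between these lines. Lower members in S42A lay away from parental relative to the Twist1 line in 32 cases and toward it in 19, and higher members in 14 and 13.

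Between S42D and the Twist1 line 75 members (64.7%) were called, where 43.3% of all genes were, and 19 (16.4%) at 1 log2 or more, where 4.82% of all genes were. S42D was higher for 45 members and lower for 30, and for 20.7% and 22.6% of all genes. The share higher in S42D went from 60% to 56% of called members with median centring, and from 47.9% to 41.3% of called genes. Of called lower members, 34 lay toward parental in S42D and 14 away, and of called higher members 16 and 11. Calcrl (3.78 ± 0.084 log2, adjusted p = 2.7e-13) had the largest difference here, with its Twist1 mean in the dim range, followed by Ogn (2.78 ± 0.11 log2, adjusted p = 7.5e-11), Inmt (2.21 ± 0.059 log2, adjusted p = 1.5e-12) and Phxr4 (2.20 ± 0.36 log2, adjusted p = 0.00014). Lower in S42D were Ddah2 (-2.95 ± 0.14 log2, adjusted p = 3.1e-10), Atp13a4 (-1.84 ± 0.094 log2, adjusted p = 8.6e-10), Camk1d (-1.49 ± 0.15 log2, adjusted p = 1.2e-06) and Mustn1 (-1.23 ± 0.090 log2, adjusted p = 3.7e-08).

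Between S42D and S42A 70 members (60.3%) were called, where 36.1% of all genes were, and 21 (18.1%) at 1 log2 or more, where 3.16% of all genes were. They were higher in S42D for 45 and lower for 25, against 17.1% and 19.1% of all genes. Centring changed the share higher in S42D from 64.3% to 63.6% of called members and from 47.2% to 45.4% of called genes. Called lower members lay toward parental in S42D in 38 cases and away in 8, and called higher members in 17 and 7. Jmjd8 (2.68 ± 0.099 log2, adjusted p = 4.5e-11), Aqp8 (2.32 ± 0.13 log2, adjusted p = 4.2e-09), Slc25a23 (2.25 ± 0.070 log2, adjusted p = 7.1e-12) and Ogn (2.17 ± 0.11 log2, adjusted p = 1.5e-09) were higher in S42D. Atp13a4 (-1.44 ± 0.094 log2, adjusted p = 2e-08), Ccne1 (-1.1998 ± 0.053 log2, adjusted p = 3e-10), Taf4b (-0.89 ± 0.092 log2, adjusted p = 2.2e-06) and Cpeb2 (-0.82 ± 0.082 log2, adjusted p = 1.5e-06) were lower. The Twist1 probe set itself was highest of the derived lines in S42D, at 8.96 to 9.07 log2 against 8.60 to 8.80 in S42A and 8.16 to 8.49 in the Twist1 line, and its part in these differences was not tested.

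Across the 6 comparisons 14 members (12.1%) were called in all, as were 7.97% of all genes, and 5 members (4.31%) in none, as were 34.2% of all genes. The 5 were Bmp5, Pde9a, Qpct, Slc43a2 and Synpo2. A p that misses the threshold does not show that lines are alike, and 3 of these genes, Bmp5, Pde9a and Qpct, had derived lines in the dim range. Synpo2 lay barely above it, with a mean of 5.498 log2 in the Twist1 line against the limit of 5.497. The largest differences between derived lines were 0.16, 0.070 and 0.14 log2 for Bmp5, Pde9a and Qpct, and 0.17 and 0.19 log2 for Slc43a2 and Synpo2.

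Members belonged to 8 of the gene lists kept for the study. The cell cycle list held Ccne1, and in the Twist1 line against Tw1KD 32 of its 40 measured genes rose and 3 fell (23.5% and 24.5% of all genes), with a median difference of 0.65 log2 (-0.061 over all genes). Against Tw1KD it had 30 higher and 2 lower in S42A and 27 and 3 in S42D. In S42D 23 of its genes were lower than in S42A and 2 higher (19.1% and 17.1% of all genes). Integrins and adhesion molecules held Itgb7, Icam1 and Mcam. Of the 64 measured, 30 were called higher and 10 lower in S42D against Tw1KD (21.7% of all genes each way), and 13 and 25 in the Twist1 line against Tw1KD.

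Mesenchymal and matrix genes held Ogn, Ccn2 and Ccn5, and of 59 measured 21 were called higher and 6 lower in S42D against Tw1KD, with a median of 0.017 log2 (-0.045 over all genes). The same list had 19 higher and 13 lower in the Twist1 line against Tw1KD. The matrix protease list held Mmp13, Serpinf1 and Cst6, with 26 of 59 higher and 15 lower in S42D but 13 higher and 24 lower in the Twist1 line, each against Tw1KD. Growth factor signalling held Fgfr1 and Igf2, with 19 of 55 higher and 10 lower in S42D and 10 and 18 in the Twist1 line. The TGF-beta and BMP pathway held Bmp5, with 16 of 54 higher and 12 lower in S42D and 15 each way in the Twist1 line. The p53 response held Sesn1 and Btg2, with 8 of 34 higher and 16 lower in S42D and 11 and 17 in the Twist1 line. Hypoxia and glycolysis held Car9, with 11 of 35 higher and 12 lower in S42D and 7 and 17 in the Twist1 line. In S42A these counts were 20 and 11 for mesenchymal and matrix genes, 18 and 17 for matrix proteases, 15 and 12 for growth factor signalling, 14 and 19 for the TGF-beta and BMP pathway, 11 and 17 for the p53 response and 11 and 15 for hypoxia and glycolysis. Against Tw1KD, 23.5% of all genes were called higher and 24.5% lower in the Twist1 line. The shares were 22.8% and 19.7% in S42A, and 21.7% each way in S42D. Several list counts lay near these shares, and no list was tested as a set. The members were a minority of each list, and the lists were written with earlier results of these data known.

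There were 3 members with further probe sets, which the rule did not use and which lie on the same arrays. Dock6 had 14 further probe sets, all lower than parental in all 4 lines, and 13 of them met the threshold. Their differences ran from -1.73 to -0.73 log2 in Tw1KD, -2.45 to -1.20 in the Twist1 line, -1.36 to -0.62 in S42A and -1.81 to -0.86 in S42D. The Twist1 line had the largest difference in all 14, as in the brightest probe set. Pde4d had 2 further probe sets, at -2.26 to -2.17 log2 in Tw1KD and -1.67 to -1.04 in S42D, and both met the threshold. The 2 further ones of Tet1 ran from -0.96 to -0.78 log2 in Tw1KD and from -1.16 to -0.82 in the Twist1 line, smaller than the -1.45 and -1.59 of the brightest, and both met the threshold too.

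**Figure D5:**
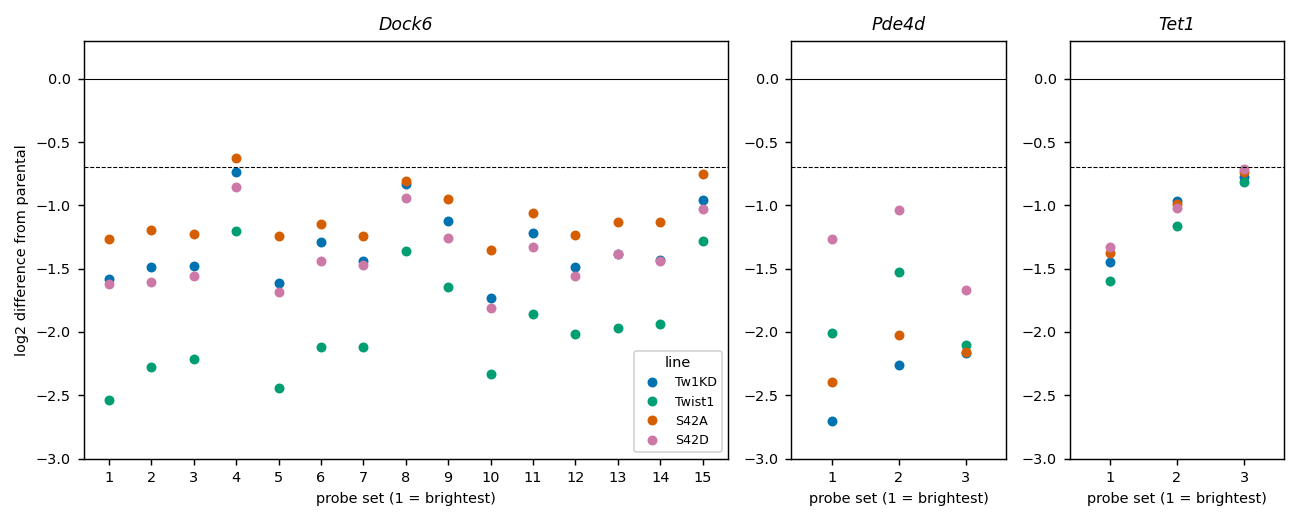
Difference from the parental mean (log2, y axis) of every probe set of Dock6, Pde4d and Tet1 in the Tw1KD, Twist1, S42A and S42D lines, with probe sets ordered from the brightest along the x axis and the dashed lines at -0.7. Only the first probe set of each gene entered the rule. The fourth probe set of Dock6 is above the dashed line in S42A, at -0.62, and every other point lies below it.

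Position in the genome was not used by the rule. In the RefSeq gene order, 7 pairs of members had at most 5 measured genes between them, and in 6 pairs both members moved the same way. How many such pairs a random set of genes would give was not computed. As 77 of the 116 members were lower, like directions are common in any pairing of members. Pbk and Esco2, both higher, and Syt13 and Prdm11, both lower, were next to each other. Inmt and Aqp1, both lower, had Mindy4 between them, which differed from parental cells by -0.68, -0.11, 0.23 and 0.49 log2 in the Tw1KD, Twist1, S42A and S42D lines and so did not share their direction. Tnnt3 and Igf2, both lower, had Mrpl23 between them. Srgn and Tet1, both lower, had 5 genes between them, none of which met the threshold. Fam171b, which was higher, and Calcrl, which was lower, had Zswim2 between them. Tfpi, next to Calcrl on the other side, differed from parental cells by -1.69 log2 in the Twist1 line and 2.75 log2 in S42D. Of the genes next to a higher member, 16 of 76 (21.1%) were higher than parental in all 4 lines, by any amount, against 15.02% of all genes. Of those next to a lower member, 37 of 152 (24.3%) were lower in all 4, against 21.7% of all genes.

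Promoter windows in RefSeq were found for 82 of the 116 members, 25 higher and 57 lower, with 102 windows of 300 bases. Motifs were searched on both strands, and none of the 3 kinds of E-box can overlap another on the same 6 bases. CATCTG or CAGATG was present in 18.6% of member windows, 13.96% of the windows of all measured genes and 17.2% of all windows in the table. CAGCTG was present in 18.6%, 16.3% and 16.3%, and CACCTG or CAGGTG in 18.6%, 19.6% and 20.2%. TGACTCA or TGAGTCA, the AP-1 motif, was in 3.92%, 4.61% and 5.20%, and CGCG, common in CpG islands, in 52.0%, 52.6% and 38.04%. Over all members each motif lay within 5 percentage points of its share in measured genes, a wide margin for one as rare as the AP-1 motif. By direction, CATCTG or CAGATG was in 7 of 29 windows of higher members (24.1%) and 12 of 73 of lower members (16.4%). These counts are small and their difference from measured genes was not tested. Whether Twist1 binds any of these windows was not measured here.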

How the data were processed

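The authors deposited a log2 intensity for each probe set and array, a scale inferred from the range of the values. The submitters' processing notes name R 2.10.0 and the affy package. Background correction and normalization are not given in the sources used here. Of 34760 probe sets, 21640 carried 1 gene symbol, and symbols were updated by gene number (21553 matched) to the RefSeq table of GRCm38.p6. The brightest probe set stood for each of 19937 genes, with no filter on dim ones. The build of the array design is not given, so genes carry no coordinates, and only RefSeq's own windows do.

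All 15 arrays were fitted together in limma 3.58.1 (R 4.3.3) with a mean per line, and p-values were adjusted by Benjamini-Hochberg over all genes. The fit was tested on simulated data. The members, the 25 gene lists and the naming rule were chosen with earlier results of these data known, and role groups after the members were known. The rule names the 15 members of each direction with the largest smallest difference, the 4 largest called differences each way per comparison whose arrays do not overlap, members of gene lists, those with further probe sets or neighbouring members, and genes at the threshold. Other members are named by role. Errors are standard errors with n = 3. The number of arrays limits the precision, and depth does not apply. Replicate numbers did not pair arrays. Alternatives were median centring, quantile normalization, the mean over probe sets, no dim genes, thresholds of 0.5 and 1, a replicate block, fits of only the lines compared and each array left out.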

Additional observations from a re-analysis of the deposited data

Results flagged for a closer look

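There were 6 members that differed between derived lines in a particular way: relative to Tw1KD, 1 line was called higher by at least 0.5 log2 and another called lower by at least 0.5 log2. Calcrl rose by 1.35 log2 in S42A and by 2.45 in S42D but fell by 1.33 in the Twist1 line, so that S42A exceeded the Twist1 line by 2.68 ± 0.084 log2 (SE, n = 3, limma adjusted p = 1.1e-11) and S42D exceeded it by 3.78 ± 0.084 (adjusted p = 2.7e-13). Inmt did the same, with differences of 2.74 ± 0.059 for S42A minus Twist1 and 2.21 ± 0.059 for S42D minus Twist1. Ddah2 went the other way, at -2.46 ± 0.14 for S42A minus Twist1 and -2.95 ± 0.14 for S42D minus Twist1.

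In 3 further members S42A alone stood against the other lines that carried Twist1. Aqp8 differed by -1.67 ± 0.13 log2 between S42A and the Twist1 line and by 2.32 ± 0.13 between S42D and S42A. Afap1l2 differed by -1.92 ± 0.066 and 2.13 ± 0.066 in the same comparisons, and Slc25a23 by -2.15 ± 0.070 and 2.25 ± 0.070. All of these genes kept their distance of at least 0.7 log2 from parental cells, as the rule requires.

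Probe sets that carried several gene symbols or none were outside the gene table. Of 13120 such probe sets, 45 (0.343%) met the same threshold in all 4 derived lines, 3 higher and 42 lower, against 0.637% of genes. Of the 45, 12 carried several symbols and 33 none, and their smallest differences ran from 0.71 to 1.52 log2.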

How the results depend on the processing

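A threshold of 0.5 log2 gave 263 genes and one of 1.0 log2 gave 38, in place of 116 at 0.7. Leaving out each array in turn gave 110 to 129 members, and 89 of the 116 were kept whichever array was left out. Median centring, quantile normalization, the mean over probe sets and the removal of dim genes gave 107 to 116, and 92 members were kept under the first 3 of these. The counts of members called moved with each array left out from 73 to 80 (Twist1 against Tw1KD), 69 to 77 (S42A against Tw1KD), 72 to 79 (S42D against Tw1KD), 71 to 79 (S42A against Twist1), 72 to 80 (S42D against Twist1) and 65 to 73 (S42D against S42A). The other alternatives gave 66 to 85 over the 6 comparisons. All 48 named differences between derived lines kept their direction and their call under 21 alternative settings each, 1008 values in all. They were chosen as the largest called differences without overlapping arrays, which made this likely beforehand. The smallest difference of 3 of 569 recomputed values of leading members moved by more than the spread within a line, for Dock6 and Tet1. None reversed, as their size made likely.

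The replicate numbers did not pair the arrays: of 30 pairs of arrays with the same number in different lines, 7 correlated above 0.1 in their deviations from the line means, and 6 of 15 arrays correlated best with an array of their own number. With the replicate number as a block, 77, 76, 76, 76, 74 and 70 members were called in the comparisons in the order above, and no count moved by over 1.5 times. Signals near background limit the members in the dim range, whose differences may be understated, and 3 arrays per line limit all others.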
